A study of Homo sapiens with 2 samples.

Results

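The BCL2 family was examined in poly(A) RNA of A673, an established human Ewing sarcoma line, through 10 genes listed by symbol: BCL2, MCL1, BCL2L1, BCL2L2, BAX, BAK1, BCL2L11, BBC3, PMAIP1 and BID. All 10 were found in both gene tables, out of 23352 genes, and they had 62 of the 230470 exon records. The study set A673 cells carrying a lentiviral short hairpin RNA against the transcription factor RUNX3 (hairpin 813) beside A673 cells carrying a non-target (NT) hairpin. Both groups were transduced with polybrene at 6 µg/mL, using virus harvested 72 h after the producer cells were transfected. Transduced cells of both groups were kept in puromycin (0.4 µg/mL) over 6 days, and each group is 1 library made from a pool. For both libraries the title and the shRNA characteristic contradict each other, so the libraries are named here by their titles, the 813-titled and the NT-titled library, and taking the characteristic instead would turn every direction round. One hairpin per group and 1 library per hairpin give no replicate check, so no difference was tested and no p-value was computed.

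Proteins of the BCL2 family decide whether the outer membrane of the mitochondrion stays closed. BAX and BAK1 are the effectors that open it and let cytochrome c out, which starts the caspases. BCL2, MCL1, BCL2L1 and BCL2L2 hold the effectors in check, and the BH3-only proteins BCL2L11 (BIM), BBC3 (PUMA), PMAIP1 (NOXA) and BID either occupy the inhibitors or activate the effectors directly. Tumour cells often lean on one or a few of the inhibitors, and MCL1 and PMAIP1 are short-lived proteins that respond quickly to signalling and stress.

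Splicing changes what some of these genes encode, so 2 stretches that the exon records can follow are shown first. In BCL2L1, use of an earlier splice donor removes the 3′ end of the first coding exon and turns the inhibitor BCL-XL into the pro-apoptotic BCL-XS, which lacks the BH1 and BH2 regions. In the hg19 coordinates of the files, the stretch in capitals is chr20:30309458-30309646 on the minus strand (189 bases, or 63 codons). In MCL1, skipping of the second exon, chr1:150550720-150550967 on the minus strand (248 bases, 2 more than a whole number of codons), shifts the reading frame and gives the pro-apoptotic short form. Both sequences were read from GENCODE release 29 transcripts at the exon of the same length, with 15 flanking transcript bases on each side in lower case.
BCL2L1 long-form stretch: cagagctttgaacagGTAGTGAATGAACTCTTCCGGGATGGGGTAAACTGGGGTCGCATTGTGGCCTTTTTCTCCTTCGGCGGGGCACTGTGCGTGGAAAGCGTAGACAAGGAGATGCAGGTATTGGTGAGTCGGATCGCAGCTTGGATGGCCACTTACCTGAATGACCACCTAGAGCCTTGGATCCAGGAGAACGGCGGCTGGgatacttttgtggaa
MCL1 second exon: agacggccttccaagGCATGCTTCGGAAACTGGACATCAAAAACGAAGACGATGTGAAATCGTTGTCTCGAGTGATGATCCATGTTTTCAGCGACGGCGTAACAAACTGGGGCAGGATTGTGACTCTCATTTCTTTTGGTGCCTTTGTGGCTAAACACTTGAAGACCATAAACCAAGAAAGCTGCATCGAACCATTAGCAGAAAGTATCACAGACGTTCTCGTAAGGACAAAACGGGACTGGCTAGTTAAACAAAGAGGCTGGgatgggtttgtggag

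The gene counts amount to 23342660 read pairs for the 813-titled library and 24326135 for the NT-titled library. Levels are CPM (pairs scaled by TMM and divided by the effective library size in units of mega-pairs), and differences are log2 folds of the 813-titled library over the NT-titled library with exact 95% binomial intervals that cover counting error only. The rule of size called a gene when its difference was 2-fold or more and its whole interval lay past 1.5-fold, and it was read over the 12254 genes that reached 1 CPM in either library. RUNX3, the targeted gene, had 15.8 CPM in the 813-titled library and 59.9 CPM in the NT-titled library (log2 fold -1.92, -2.09 to -1.76), which goes with the titles. All 7 Ewing sarcoma markers were measured in both libraries and summed to 6413 CPM in the 813-titled and 5839 CPM in the NT-titled library. The defining marker CD99 had 4026 CPM in the 813-titled and 3808 CPM in the NT-titled library (log2 fold 0.08), while NKX2-2 and NR0B1 were called lower (-1.43 and -1.11). The rest were not called: BCL11B had 0.98, CCND1 0.62, PRKCB 0.15 and STEAP1 -0.83. In all, 4 of the Ewing sarcoma markers lay above 0 and 3 below. Of markers of other cells, the 6 leukocyte genes summed to 33.1 CPM in the 813-titled and 16.3 CPM in the NT-titled library, and 3 were measured. LCP1 made up most of that sum (30.8 CPM in the 813-titled and 13.6 CPM in the NT-titled library) and was called higher (1.18), and ITGAM (13 pairs in the 813-titled and 42 pairs in the NT-titled library) was called lower (-1.73). Of the defining markers, CD3E had 0 pairs in both libraries, and PTPRC had 0 pairs in the 813-titled and 1 pair in the NT-titled library. The 6 fibroblast genes summed to 735 CPM in the 813-titled and 494 CPM in the NT-titled library, 4 were measured and 0 were called. PDGFRB (384 CPM in the 813-titled and 207 CPM in the NT-titled library, log2 fold 0.89) and THY1 (345 CPM in the 813-titled and 279 CPM in the NT-titled library, 0.31) made up most of it, while PDGFRA had 3 pairs in the 813-titled and 4 pairs in the NT-titled library. The 5 markers of HEK293, from which the virus-producing line derives, summed to 122 CPM in the 813-titled and 141 CPM in the NT-titled library, and 4 were measured. SOX1 made up most of it (114 CPM in the 813-titled and 129 CPM in the NT-titled library), GATA3 was called lower (33 pairs in the 813-titled and 93 pairs in the NT-titled library, -1.56), and PAX2 had 0 pairs in the 813-titled and 1 pair in the NT-titled library. The part of these markers in the results below was not tested, and in bulk RNA fewer cells of a type and less RNA per cell cannot be told apart.

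Of the 10 members, all were measured, 2 were called higher in the 813-titled library, MCL1 and BCL2, and 0 were called lower. Over all measured genes 11.6% were called, 8.13% higher and 3.48% lower, and with 10 genes nothing is read from the count itself. The median log2 fold of the members was 0.24, against 0.01 over all genes measured, and 6 members lay above 0 and 4 below (7 and 3 with plain total counts, 5 and 5 with median-of-ratios size factors, and 8 and 2 with a trend on GC content and length removed). The members ranged from MCL1 at percentile 96.4 of the folds of all measured genes to BBC3 at percentile 6.5.

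**Figure D1:**
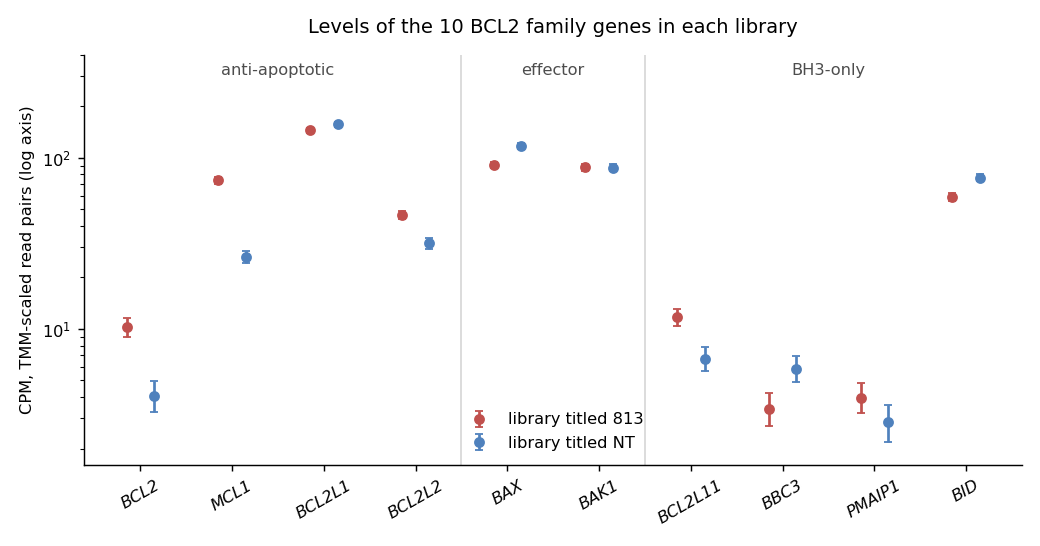
Level of each BCL2 family gene in CPM (log axis) in the 813-titled library (red, left) and the NT-titled library (blue, right), 1 library each; bars are exact 95% Poisson intervals of the pairs. MCL1 (73.8 CPM in the 813-titled and 26.3 CPM in the NT-titled library) and BCL2 (10.3 CPM in the 813-titled and 4.05 CPM in the NT-titled library) stand farthest apart, while BAK1 (87.9 CPM in the 813-titled and 87.8 CPM in the NT-titled library) lies at one level.

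Among the inhibitors, MCL1 differed most. MCL1 (chr1:150547027-150552214, minus strand) had 1806 pairs, 73.8 CPM, in the 813-titled library and 611 pairs, 26.3 CPM, in the NT-titled library. Its log2 fold was 1.49 (1.36 to 1.62), a level 2.80-fold higher. BCL2 (chr18:60790579-60986613, minus strand), the founding inhibitor of the family, had 251 pairs, 10.3 CPM, in the 813-titled library and 94 pairs, 4.05 CPM, in the NT-titled library. Its log2 fold was 1.34 (0.99 to 1.70), 2.53-fold higher, and the intervals of MCL1 and BCL2 overlap. These 2 were the only members whose count passed the rule of size.

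The call of BCL2 depended on how the composition of genes was treated. A smooth trend of the fold on transcript length and GC content, fitted over 11022 measured genes with a GC value, took up 15.9% of the variance. The value fitted for BCL2 (45.6% GC, 6620 bases) was 0.40, and that for MCL1 (45.1% GC, 4085 bases) was 0.31. With the trend removed BCL2 had a log2 fold of 0.94 (0.60 to 1.30) and was no longer called, while MCL1 had 1.18 (1.05 to 1.31) and was. Whether the trend is technical was not tested.

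The other inhibitors were not called. BCL2L1 (chr20:30252261-30310656, minus strand), which encodes BCL-XL, had 3547 pairs, 145 CPM, in the 813-titled library and 3643 pairs, 157 CPM, in the NT-titled library. Its log2 fold of -0.11 (-0.18 to -0.05) turned to 0.02 with plain total counts, so its sign rests on the scaling. BCL2L2 (chr14:23775971-23780968, plus strand), which encodes BCL-W, had 1134 pairs, 46.4 CPM, in the 813-titled library and 736 pairs, 31.7 CPM, in the NT-titled library, a log2 fold of 0.55 (0.41 to 0.68).

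The BCL2L2 count rests on part of the gene. Of its 5 exon records, 3 are also records of the read-through gene BCL2L2-PABPN1, which had 10 pairs in the 813-titled and 9 pairs in the NT-titled library as a gene. As deposited, the gene count of BCL2L2 was 2268 reads in the 813-titled library and 1472 in the NT-titled library, close to the 2208 reads in the 813-titled and 1433 reads in the NT-titled library of its unshared 3′ record. The 3 shared records held 745 reads in the 813-titled and 530 reads in the NT-titled library, and none of the 5 records lay below 0 in log2 fold (0.38 to 0.67).

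Of the effectors, BAK1 lay at the same level in the 2 libraries, and BAX was lower in the 813-titled library by less than 2-fold. BAK1 (chr6:33540323-33548070, minus strand) had 2151 pairs, 87.9 CPM, in the 813-titled library and 2037 pairs, 87.8 CPM, in the NT-titled library, a log2 fold of 0.00 (-0.09 to 0.09). BAX (chr19:49458117-49465055, plus strand) had 2226 pairs, 91.0 CPM, in the 813-titled library and 2733 pairs, 118 CPM, in the NT-titled library, a log2 fold of -0.37 (-0.45 to -0.29). With the trend on GC content and length removed, BAX (64.3% GC) had 0.13 and BAK1 0.34. Neither gene was called under any alternative run.

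The BH3-only genes did not move as a group. BCL2L11 (chr2:111878491-111926022, plus strand), a direct activator of the effectors, had 287 pairs, 11.7 CPM, in the 813-titled library and 155 pairs, 6.68 CPM, in the NT-titled library, a log2 fold of 0.81 (0.53 to 1.10). BBC3 (chr19:47724079-47736023, minus strand), a target of p53, had 83 pairs, 3.39 CPM, in the 813-titled library and 136 pairs, 5.86 CPM, in the NT-titled library, a log2 fold of -0.79 (-1.20 to -0.38). Both differences were under 2-fold, and the intervals of the pair do not overlap. PMAIP1 (chr18:57567192-57571538, plus strand), which binds MCL1, had 97 pairs, 3.97 CPM, in the 813-titled library and 66 pairs, 2.84 CPM, in the NT-titled library, a log2 fold of 0.48 (0.01 to 0.95). BID (chr22:18216906-18257431, minus strand), which caspase-8 cleaves to its active form, had 1445 pairs, 59.1 CPM, in the 813-titled library and 1776 pairs, 76.5 CPM, in the NT-titled library, a log2 fold of -0.37 (-0.47 to -0.27). None of these 4 genes was called. Their order depended on the trend on GC content and length: with it removed, PMAIP1 had 0.62, BCL2L11 0.43, BBC3 -0.41 and BID -0.47.

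**Figure D2:**
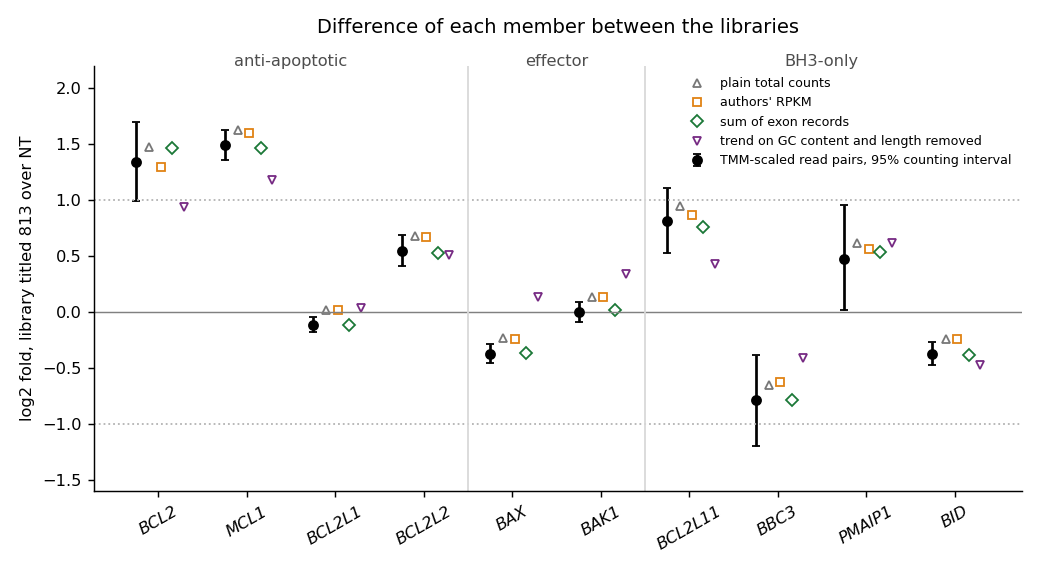
Log2 fold of each member, 813-titled library over NT-titled library; black points are TMM-scaled pairs with 95% counting intervals, open symbols are 4 alternative treatments, and dotted lines mark 2-fold. MCL1 stays above 1 in each treatment shown (1.18 to 1.62), BCL2 falls to 0.94 with the trend on GC content and length removed, and BAX and BCL2L1 change sign in some.

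**Figure D3:**
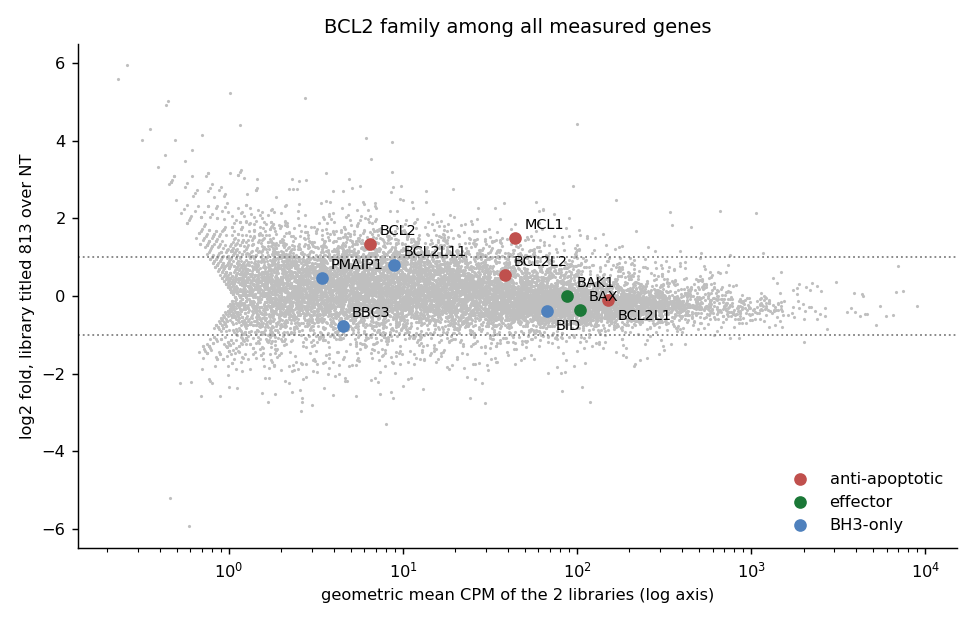
Log2 fold (813-titled library over NT-titled library) against the geometric mean CPM of the 2 libraries (log axis) for all 12254 measured genes in grey, with the 10 members coloured by role; dotted lines mark 2-fold. MCL1 at 1.49 and BCL2 at 1.34 lie above the upper line, and the other 8 members lie between the lines.

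Per-length levels, on the authors' RPKM scale, show how the classes were made up. BAX stood highest in both libraries (58.3 RPKM in the 813-titled library and 68.9 in the NT-titled library), followed by BCL2L1 (45.6 and 45.1), BAK1 (32.2 and 29.4) and BID (17.9 and 21.1). MCL1 came next in the 813-titled library, at 14.5 RPKM over BCL2L2 at 10.2. In the NT-titled library the order of that pair was the other way, with MCL1 at 4.74 RPKM and BCL2L2 at 6.37. The counting intervals of neighbouring levels down to there did not overlap, but they do not cover uneven coverage along a gene. BAX records had 33.8 to 193 RPKM in the 813-titled and 35.0 to 246 in the NT-titled library. In that order of libraries, the highest BID record had 62.3 and 84.7 RPKM and its longest 12.1 and 11.8. The highest BAK1 record had 51.2 and 51.0 RPKM and its longest 32.6 and 28.5. The order of BAK1 and BID thus depends on the part read. Nor do the intervals cover the limit of the BCL2L2 count. That count leaves out most reads of the shared records, while its RPKM is over the whole gene length. The BCL2L2 records had 8.77 to 22.0 RPKM in the 813-titled and 5.36 to 14.6 in the NT-titled library, so its gene level could be too low. The 4 lowest genes in both libraries were PMAIP1 (1.65 RPKM in the 813-titled and 1.08 RPKM in the NT-titled library), BCL2L11 (1.52 and 0.790), BBC3 (1.30 and 2.06) and BCL2 (1.25 and 0.450), and in the 813-titled library the intervals of each neighbouring pair of them overlapped.

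MCL1 took a larger share of the inhibitor class in the 813-titled library. Its share of the summed RPKM of the 4 inhibitors was 20.3% (19.4 to 21.2) in the 813-titled library and 8.36% (7.71 to 9.01) in the NT-titled library, with intervals for counting error only. BCL2L1 made up 63.7% (62.6 to 64.8) in the 813-titled and 79.6% (78.6 to 80.6) in the NT-titled library, and so was the most abundant inhibitor in both. BCL2 made up 1.74% in the 813-titled and 0.794% in the NT-titled library. The inhibitor sums include BCL2L2 at the gene level limited as above. The summed inhibitors over the summed effectors gave a ratio of 0.790 in the 813-titled library and 0.576 in the NT-titled library, 1.37-fold higher (log2 0.46, 0.37 to 0.54). Library scaling cancels in this ratio, but other settings moved it: with the trend on GC content and length removed the log2 difference was 0.04, and with levels from the most read exon record it was 0.64. The BH3-only genes over the effectors gave 0.247 in the 813-titled and 0.255 in the NT-titled library (log2 -0.05, -0.16 to 0.06), which moved to -0.56 with the trend removed and to 0.34 with the most read record. BID alone was 80.0% of the BH3-only sum in the 813-titled and 84.3% in the NT-titled library.

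**Figure D4:**
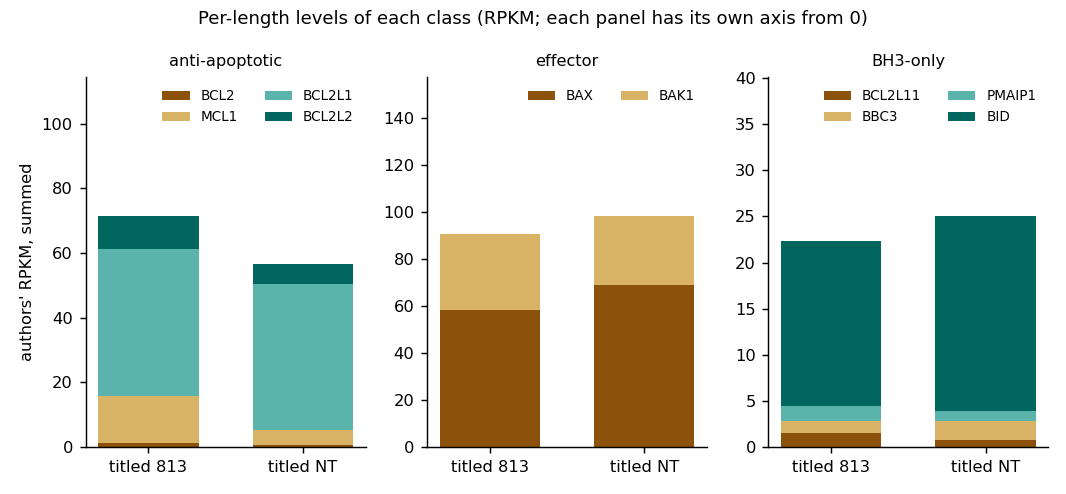
Authors' RPKM of the members stacked by role class, 813-titled library left and NT-titled library right in each panel, 1 library each; each panel has its own axis from 0. The inhibitor stack is 71.5 RPKM in the 813-titled library and 56.6 in the NT-titled library, the effector stack 90.5 RPKM in the 813-titled and 98.3 RPKM in the NT-titled library, and the BH3-only stack 22.3 RPKM in the 813-titled and 25.1 RPKM in the NT-titled library.

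Each exon record was set against the other records of its gene. Of the 62 records, 46 had 50 reads or more over both libraries, and 0 differed 2-fold or more from the rest of their gene with intervals apart, against 0.43% of 93885 records over all genes, so nothing is read from the count of 0. Overlapping records of a gene share reads, and reads were halved for the intervals since 1 pair can add 2 reads to a record. The 5 MCL1 records had log2 folds from 1.19 to 1.55, and the 4 BCL2 records from 1.26 to 1.54, so each value of both genes lay above 2-fold. Their intervals did not all do so: the lower bounds ran from 0.69 to 1.39 in MCL1 and from 0.20 to 1.01 in BCL2.

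For the splice-dependent stretches printed above, a difference in form was not detectable at this depth. Reads of the longer BCL2L1 record that were absent from the shorter one, and so touch only the long-form stretch, were 748 of 2366 reads in the 813-titled library and 692 of 2401 in the NT-titled library. These are shares of 31.6% (Clopper-Pearson on halved reads, 28.97 to 34.35) in the 813-titled and 28.8% (26.3 to 31.5) in the NT-titled library, whose intervals overlap. The second exon of MCL1 had 357 reads (23.7 RPKM) in the 813-titled library and 148 reads (9.45 RPKM) in the NT-titled library, a log2 fold of 1.19 (0.80 to 1.61). The other 4 MCL1 records together had 1.49 (1.35 to 1.62), so the exon lay 0.30 lower than the rest, with intervals that overlap. Within the first exon of MCL1, the middle part that a further short form splices out held 49.8% of the reads of the whole record in both libraries (44.3 to 55.4 in the 813-titled and 40.7 to 58.9 in the NT-titled library). No read across a junction is counted in the files used here, so these values describe coverage and not joined exons.

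Smaller differences along a gene were seen in a few records, all chosen here after their values were seen. The first BAX record (chr19:49458117-49458219) had 281 reads in the 813-titled library and 246 in the NT-titled library, a log2 fold of 0.12 (-0.24 to 0.48) against -0.39 (-0.46 to -0.33) for the rest of the gene. The last BID record (chr22:18216906-18218357), at the 3′ end, had 1070 reads in the 813-titled and 1084 reads in the NT-titled library, -0.09 (-0.27 to 0.08) against -0.50 (-0.61 to -0.39). In both cases the intervals did not overlap and the difference was under 1.5-fold. The first PMAIP1 record (chr18:57567192-57567467) had 41 reads in the 813-titled library and 9 in the NT-titled library, 1.995 (0.61 to 3.99), while its other record had 157 reads in the 813-titled and 121 reads in the NT-titled library, 0.30 (-0.20 to 0.81). That is a wide gap on few reads, and the intervals overlap.

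Most reads of BCL2L11 and BBC3 lay in the last record, which is the longest of each gene. Per length that record was not the highest. In the 813-titled library the fourth record had 3.10 RPKM against 1.84 in BCL2L11, and 2.32 against 1.77 in BBC3. These are few reads, and further records of both genes lay below the last one. The last of 14 BCL2L11 records, 4313 bases long, held 483 reads in the 813-titled library and 248 in the NT-titled library, and each of 12 others had fewer than 50 reads over both libraries. The 5′-most BBC3 record had 0 reads in both. Forms of these 2 genes that differ at the 5′ end were therefore not resolved at this depth.

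**Figure D5:**
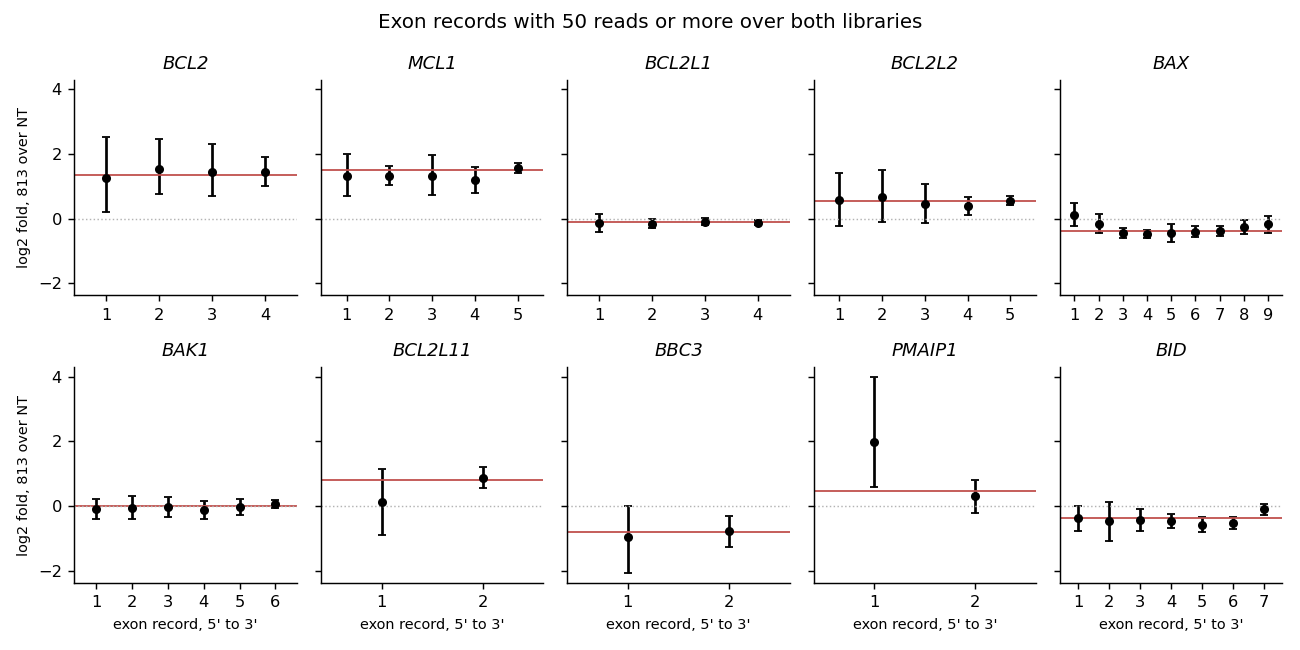
Log2 fold (813-titled library over NT-titled library) of the exon records with 50 reads or more over both libraries, in order from the 5′ to the 3′ end of each gene; bars are 95% counting intervals, the red line is the gene and the dotted line is 0. The points of all 4 BCL2 and 5 MCL1 records lie above 1, with some intervals of both genes reaching below it. The BCL2L1 and BAK1 records lie near 0, and the first PMAIP1 record (1.995) lies over a wide interval.

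Because RUNX3 binds DNA, the promoters of the members were searched for a core form of its binding sequence, TGTGGT, on both strands (ACCACA on the other). Other forms of the core were not searched. RefSeq promoters on GRCh38.p14, each of 250 bases before and 50 after a gene start, matched 8 of the 10 members with 13 promoters; MCL1 and BCL2L2 had no entry. TGTGGT was found in 2 of the 13, 1 of BCL2 and 1 of the 2 BCL2L1 promoters, and in 13.1% of all 35116 promoters. Both promoters with a match are shown. The BCL2 one belongs to a gene that was called higher and the BCL2L1 one to a gene that was not. Both are given 5′ to 3′ on the minus strand, with the match in capitals; BCL2 is chr18:63319720-63320019 and BCL2L1 chr20:31723914-31724213. A match of letters is not evidence of binding, which was not measured here.
BCL2 promoter: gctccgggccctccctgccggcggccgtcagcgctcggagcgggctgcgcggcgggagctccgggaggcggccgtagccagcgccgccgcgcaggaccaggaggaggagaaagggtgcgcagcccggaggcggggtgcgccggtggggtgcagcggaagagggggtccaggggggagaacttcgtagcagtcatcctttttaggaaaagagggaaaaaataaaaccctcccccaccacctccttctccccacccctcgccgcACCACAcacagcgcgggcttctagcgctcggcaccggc
BCL2L1 promoter: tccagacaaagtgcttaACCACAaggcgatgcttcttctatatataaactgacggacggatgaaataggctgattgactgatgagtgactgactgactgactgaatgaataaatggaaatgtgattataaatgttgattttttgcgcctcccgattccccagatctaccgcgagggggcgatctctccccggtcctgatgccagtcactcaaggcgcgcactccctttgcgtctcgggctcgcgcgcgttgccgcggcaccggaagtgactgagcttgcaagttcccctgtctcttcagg

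Around the 10 members, 63 genes of 7 lists were followed, of which 53 were measured, 6 were called higher and 1 lower (5 to 7 higher and 0 or 1 lower under the alternatives). That is 13.2% called, against 11.6% over all genes measured, and their median log2 fold was 0.02. The called genes lay in the caspase, inhibitor of apoptosis, death receptor and remaining BCL2 family lists, and 0 genes were called in the other 3 lists.

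Of the 8 apoptosome and caspase genes, 3 were called higher and 0 lower (median 0.68, or 0.51 with the trend on GC content and length removed). APAF1, the scaffold that cytochrome c assembles into the apoptosome, had 8.01 CPM in the 813-titled library and 2.76 CPM in the NT-titled library, a log2 fold of 1.53 (1.13 to 1.97). CASP8, the initiator caspase of death receptors, had 16.9 CPM in the 813-titled and 8.18 CPM in the NT-titled library (1.05, 0.80 to 1.30), and it was no longer called once that trend was removed (0.77). CASP9, the caspase that the apoptosome activates, had 20.1 CPM in the 813-titled and 26.0 CPM in the NT-titled library, a log2 fold of -0.37.

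Of the 7 inhibitor of apoptosis genes, 5 were measured, 2 were called higher and 0 lower (median 0.55, or 0.38 with the trend removed). NAIP had 7.60 CPM in the 813-titled library and 1.895 CPM in the NT-titled library (1.99, 1.52 to 2.51); it lies in a duplicated region with near-identical copies, so its reads could be split or lost among them. XIAP, which blocks caspases, had 8.14 CPM in the 813-titled and 3.19 CPM in the NT-titled library (1.35, 0.96 to 1.76), and its call ended with the trend removed (0.96). BIRC5 (survivin), the most abundant of the list, had 292 CPM in the 813-titled and 551 CPM in the NT-titled library, a log2 fold of -0.92 that did not reach 2-fold. Of the 12 death receptor genes, 9 were measured and 1 was called, RIPK1, an adaptor kinase of these receptors. RIPK1 had 26.3 CPM in the 813-titled and 11.03 CPM in the NT-titled library (1.25, 1.04 to 1.47). The list median was 0.28, or 0.17 with the trend removed.

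Among 13 other BCL2 family genes, 8 were measured, 0 were called higher and 1 lower (median -0.08, or 0.07 with the trend removed). BAD, a BH3-only protein controlled by phosphorylation, had 47.3 CPM in the 813-titled library and 96.8 CPM in the NT-titled library, a log2 fold of -1.03 (-1.14 to -0.93). Its call ended under 4 alternatives, among them plain total counts (-0.90) and the trend removed (-0.54). BIK, a BH3-only gene with 45 pairs in the 813-titled and 16 pairs in the NT-titled library, had 1.39 (0.57 to 2.34), whose interval reached under 1.5-fold. It was called higher under 5 of 8 alternatives, among them plain total counts (1.52) and the trend removed (1.70). BCL2A1, a further inhibitor, had 1 pair in the 813-titled library and 0 in the NT-titled library. Of the 8 genes of mitochondrial release proteins and channels 0 were called. Their log2 folds ran from -0.58 to -0.01 (median -0.22, or -0.26 with the trend removed). The 4 MCL1 ubiquitin ligase and deubiquitinase genes (median 0.42, or -0.03 with the trend removed) also had 0 calls. The 11 transcription factors known to act on members had 0 calls too (median -0.28, or -0.06 with the trend removed). Of the ubiquitin genes, HUWE1, a ligase that marks MCL1 for destruction, had 406 CPM in the 813-titled and 473 CPM in the NT-titled library (-0.22). FBXW7 and BTRC, substrate receptors of other ligases that mark MCL1, had log2 folds of 0.97 (0.27 to 1.73) and 0.32 (0.15 to 0.49). With the trend removed these were 0.67 and -0.07, and FBXW7 had only 52 pairs in the 813-titled and 25 pairs in the NT-titled library. USP9X, which removes that mark, had 11.4 CPM in the 813-titled and 8.01 CPM in the NT-titled library (0.51, or 0.01 with the trend removed).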

How the data were processed

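Poly(A) RNA of 2 A673 libraries was measured, 1 per hairpin, grouped by title. The submitters' processing notes name TopHat2 2.0.6, CASAVA 1.9, HTSeq and the build hg19 without their roles; the gene models, any strandedness and any filter were not given in the sources used here, so reads of overlapping genes cannot be told apart. The authors deposited counts per gene and per exon record with RPKM values, per the file headers; the RPKM is per gene length and per 60848394 (titled 813) or 63156235 (titled NT) reads. All deposited gene counts are even and were divided by 2 into pairs. Of 23398 gene rows, 46 repeats were dropped.

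TMM scaling used edgeR 4.0.16 under R 4.3.3 (factors 1.05, titled 813, and 0.954, titled NT) without a model fit, since 1 library per group gives no spread. Log2 folds used a prior of 0.5 pairs and exact 95% conditional binomial intervals (scipy 1.17.1). These cover counting error alone, since each group has 1 library. PCR duplicates are not separate molecules, so the intervals could be too narrow even for counting error. Intervals of shares and ratios of RPKM sums used the Poisson error of the pairs. The fold and call rule was run on simulated Poisson counts with known changes. These hold no spread between libraries, no PCR duplicates and no trend on GC content or length, so the run cannot speak to those. GC content came from the GENCODE release 29 transcript nearest in length (89.9% of measured genes). Median-of-ratios size factors came from DESeq2 1.42.0. Genes named were the members, RUNX3, and up to 4 called genes per direction and list; uncalled genes named beside them were chosen after their values were seen. One called gene of these lists is not reported here. The members and lists were chosen with earlier results of these data known.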

Additional observations from a re-analysis of the deposited data

How the results depend on the processing

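MCL1 was called higher under all 8 alternatives for its fold (1.18 to 1.62), and BCL2 under 7 of 8 (0.94 to 1.47); its call was lost with the trend on GC content and length removed, which left 1 member called higher. Members called lower stayed at 0 under each alternative. Plain total counts moved the median of all measured genes by 0.14 on the log2 scale and the authors' RPKM by 0.12, which turned BCL2L1 above 0 (0.02 and 0.02) and put BAK1 at 0.14 and 0.13; higher genes made up 81.5% and 79.7% of all calls, against 70.0% with TMM. The single pathway gene called lower, BAD, dropped the count to 0 with plain total counts, the authors' RPKM, the sum of exon records and the trend removed. The trend changes the value by construction; what gives rise to it was not tested. Exon records departing from their gene numbered 0 also with a minimum of 20 reads and with a 1.5-fold departure.

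Shares within a class depended on the record used for the level. From the most read exon record, the inhibitor shares in the 813-titled library were 1.43% for BCL2, 61.07% for BCL2L1 and 17.22% for BCL2L2, against 0.61%, 77.61% and 13.73% in the NT-titled library. BAX was 85.53% of the effectors in the 813-titled library and 89.6% in the NT-titled library, and BAK1 was 14.47% in the 813-titled and 10.4% in the NT-titled library. In the BH3-only class, with the 813-titled and the NT-titled library in that order, BCL2L11 was 10.65% and 5.46%, BBC3 10.23% and 16.71%, PMAIP1 9.0% and 6.92%, and BID 70.11% and 70.91%. The most read record is not the same part of each gene. For BAX it was the fourth of 9 records (136 bases), and for BAK1 the last of 6 (1362 bases). How far this moved the shares was not tested. MCL1 stayed within its counting interval with the most read record, but the trend on GC content and length was not removed from the shares. The log2 difference of the inhibitor to effector ratio was 0.044 with the trend removed and 0.635 from the most read record, that of the BH3-only to effector ratio -0.562 and 0.336. The inhibitor to BH3-only ratio was 3.20 in the 813-titled and 2.26 in the NT-titled library (log2 0.504, 0.398 to 0.610). It had 0.606 with the trend removed and 0.3 from the most read record. These alternatives were chosen after seeing the data. No paired analysis was possible because each group has 1 library. Depth limits BBC3 and PMAIP1 most, with 66 to 136 pairs each.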
